A study of Homo sapiens with 6 samples.

Results

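The long arm of chromosome 1 (1q) carried 396 of the 5437 peaks that the authors called in RNA recovered with an anti-RBM8A antibody. A peak was a member when its summit, on chromosome 1 of genome build hg19, lay at or beyond position 125000000. The 3 peak lists contributed 110 of 1480, 147 of 2155 and 139 of 1802 peaks in replicates 1, 2 and 3, or 7.43%, 6.82% and 7.71% of each list. The last summit before that position was at 121116698 and the first after it at 142690069, so no peak lay near the limit.

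The assay was RNA immunoprecipitation followed by sequencing (RIP-seq) in AGS, an established human gastric adenocarcinoma cell line, wild type and untreated. The series held 3 RBM8A immunoprecipitates and 3 inputs, numbered 1 to 3 in each group, and only the immunoprecipitates had peak lists to analyse here. RNA was pulled down from lysate without a described crosslinking step, and there was no immunoprecipitate with a control antibody, so bound and nonspecifically held RNA cannot be told apart. The labels do not say whether replicates were separate cultures, so their spread may be technical.

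RBM8A, also named Y14, pairs with MAGOH in the core of the exon junction complex. The complex is placed on RNA during splicing, just upstream of exon junctions, and travels with the messenger RNA until translation. It takes part in export, localisation and nonsense-mediated decay. The bands 1q21.1 and 1q21.2 are known for large blocks of near-identical duplicated sequence, in which short reads can match several copies. The neighbouring bands 1q21.3 and 1q22 are dense in genes, among them the S100 calcium-binding protein genes, and the gene of RBM8A itself lies in 1q21.1.

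Each list gives a peak's ends, its summit and its fold enrichment, which is the pileup of fragments at the summit over the expected level after adding 1 to each. Sequencing depth was unknown. The pileup itself was recovered from the deposited fold and −log10 p-value for all 396 peaks, and it ran from 4 to 79 fragments. A pileup of 4 has an exact 95% Poisson interval of 1.09 to 10.2, one of 10 an interval of 4.8 to 18.4, and one of 66 an interval of 51 to 84, which cover counting error only. In replicates 1, 2 and 3, 47, 63 and 52 arm peaks had an expected level at the lowest value of their list (0.422, 0.400 and 0.374 fragments), called the floor below. Positions are counted from 1 and peaks carry no strand. Genes are named as those known to lie at these positions and as background; no annotation of this build was used, so exons, introns and UTRs were not assigned. The genes named beside positions were chosen after the positions were seen.

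The peaks were spread unevenly along the arm. Of the 125 megabases it spans, 66 held no peak in any list and 29 held a peak in every list. The first bands, 1q11 and 1q12, which are centromere and heterochromatin, held 0 peaks. Whether a peak could be called there was not examined, so this is not read as an absence of enrichment. These bands lie among the megabases without a peak and in the arm length used below. Bands 1q31.3, 1q32.2 and 1q32.3 also held 0 peaks. Band 1q22 was the densest, with 14, 13 and 15 peaks in replicates 1, 2 and 3, or 9.33 ± 0.667 peaks per Mb (SD, n = 3). Joined where they overlapped between lists, its peaks made 25 regions, of which 2 were in all 3 lists. At chr1:155630159-155695217, 1 of these 2, the replicates called 3, 1 and 7 peaks, so the density partly counts a region that was split. Band 1q42.12 followed with 10, 13 and 11 peaks and 4.72 ± 0.636 per Mb, and 1q21.3 with 17, 31 and 17 peaks and 4.61 ± 1.72 per Mb. The order of 1q42.12 and 1q21.3 was within their spread, since replicate 2 alone held 31 of the 1q21.3 peaks. The longest stretch without a summit inside the peak-bearing part ran from 206900393 in 1q32.1 to 214787275 in 1q41, or 7886882 bp.

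**Figure D1:**
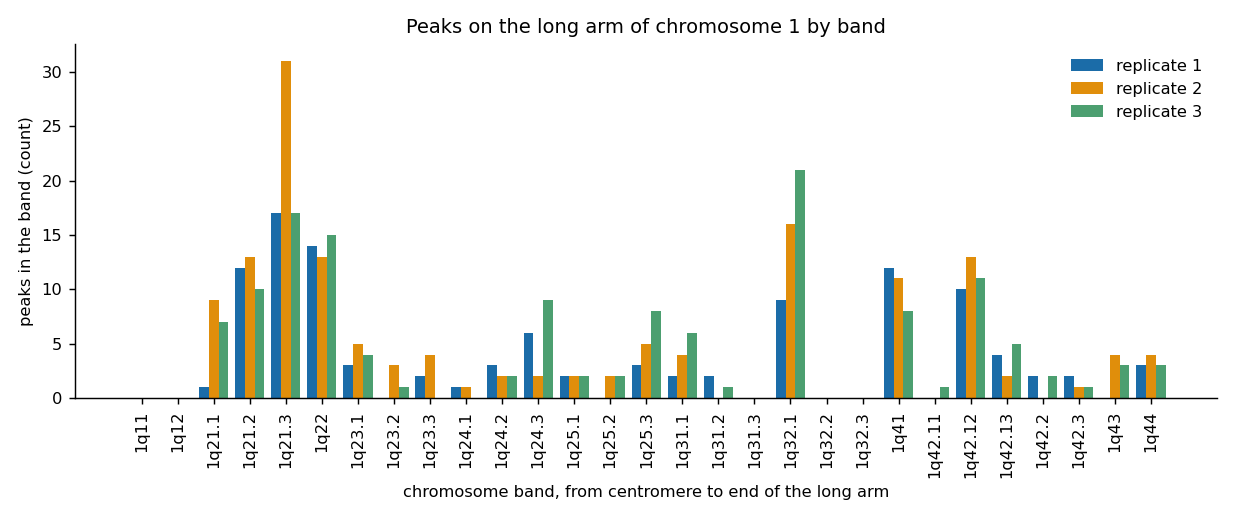
Number of peaks (vertical axis, count) in each band of the long arm of chromosome 1 (horizontal axis, centromere to end), with one bar per replicate. Peaks gather in 1q21.2 to 1q22, in 1q32.1 and in 1q41 to 1q42.12, and 1q21.3 in replicate 2 is the tallest bar at 31 peaks.

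The megabases at 154 to 155 Mb and 156 to 157 Mb ranked first and second of the arm by peak number, the reason for their choice. The former held 9, 17 and 10 peaks in replicates 1, 2 and 3 (12 ± 4.36, SD, n = 3) and the latter 11, 12 and 8 (10.3 ± 2.08). The megabase between them came next with 6, 6 and 11 peaks. Together these 3 Mb make up 2.41% of the arm and held 23.6%, 23.8% and 20.9% of its peaks (22.8% ± 1.65). Joined across lists wherever peaks overlapped by at least 1 bp, the peaks of both windows made 39 regions, of which 7 were in all 3 lists, 11 in 2 and 21 in 1.

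All 67 window peaks lay at 16 genes, and 4 of these (UBAP2L, ADAR, CCT3 and TPM3) held 40 of them, or 59.7%. Peaks at 7 genes came from every list and peaks at 6 genes from 1 list. UBAP2L, which encodes an RNA-binding protein of stress granules, had 3, 5 and 5 peaks in replicates 1, 2 and 3. ADAR, the enzyme that converts adenosine to inosine in double-stranded RNA, had 3, 6 and 3. The chaperonin subunit gene CCT3 had 4, 3 and 1, and TPM3, a tropomyosin gene, had 2, 3 and 2. A gene could be found by every replicate while its peaks differed, as at CCT3, which had 6 separate regions of which 0 were in all 3 lists.

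At ADAR the peaks ran from chr1:154558727-154600119 and only the first region, chr1:154558727-154560904, was in every list. There the best peak by fold reached 3.97-fold, 3.42-fold and 3.93-fold with pileups of 8, 7 and 10 in replicates 1, 2 and 3, and the best peaks of replicates 1 and 2 shared no base. A deeper peak further along, chr1:154570323-154570957, was in 2 lists, with 20 fragments at 3.71-fold in replicate 2 and 27 fragments at 7.88-fold in replicate 3. The latter was the highest fold of replicate 3 on the arm, and replicate 1 had no peak there.

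UBAP2L had 2 neighbouring regions in all 3 lists. The first, chr1:154197791-154199625, had folds of 4.85, 6.52 and 3.55 and pileups of 10, 9 and 8. In the second, chr1:154201164-154208247, folds were 5.40, 2.95 and 3.96 with pileups of 7, 14 and 7, so the replicate with the highest pileup had the lowest fold. The region at TPM3, chr1:154130351-154131527, was deeper and less enriched. It had 27, 32 and 23 fragments, but the expected level was also high (12.7, 14.6 and 8.17), and the folds were 2.05, 2.12 and 2.62.

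In the window at 156 to 157 Mb the regions found by every list were at LMNA, ISG20L2 and ARHGEF11. LMNA encodes lamins A and C of the nuclear envelope, and its region chr1:156100452-156104630 had folds of 4.09, 4.73 and 5.20 with pileups of 10, 12 and 7. ISG20L2, an exonuclease gene, had folds of 4.74, 4.16 and 3.96 at chr1:156694062-156696716, with 7, 8 and 7 fragments. ARHGEF11 had folds of 3.72, 5.00 and 3.64 at chr1:156905563-156906664, with 9, 6 and 4 fragments. At each of these genes the 95% counting intervals of the 3 pileups overlapped. The growth factor gene HDGF held the deepest peak of this window, chr1:156713636-156714378, with 34 fragments in replicate 2 and 30 in replicate 3, at only 2.17-fold and 2.03-fold. SMG5, a factor of nonsense-mediated decay, the pathway in which the exon junction complex takes part, had 2 peaks, both in replicate 3 alone, with 6 and 4 fragments.

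Recurrence in the windows and in the rest of the arm is compared next. The share overlapped in both other lists was 30%, 20.7% and 38.9% in the windows against 34.4%, 23.7% and 25.6% outside them, a mean difference of 1.93 ± 9.85 percentage points (SD, n = 3; exact two-sided sign-flip permutation test, p = 1). It was lower in the windows in replicates 1 and 2 and higher in replicate 3, and the value depended on how sharing was counted. When sharing required 50% of each peak to overlap, the difference was 12.2 points and among peaks under 10 kb it was 9.8 points, each with the same sign in 3 of 3 replicates (exact sign-flip permutation p = 0.25, the smallest possible). With replicates 1, 2 and 3 left out in turn, a peak had to be overlapped only in the remaining other list. The difference in that looser share was 17.5, 3.88 and 6.58 points, which is not the same measure as above. Overlap is mutual, so the 3 lists counted largely the same shared regions, and their differences were not independent. By region, 7 of 39 (17.9%) in the windows and 25 of 216 (11.6%) outside were in all 3 lists. Over all 3584 regions of the series that share was 12.1%. The windows were chosen by peak number over the 3 lists, and a region in all 3 adds at least 3 peaks. That choice itself favours recurrent regions, so these comparisons cannot show that recurrence is higher there. Peaks of at least 10 kb made up 5%, 3.45% and 0% of window peaks (1 of 20, 1 of 29 and 0 of 18) and 7.79%, 6.25% and 7.69% of the arm outside the windows and outside 1q21.1 and 1q21.2. Median widths in the windows were 1397, 1558 and 929 bp against 2027, 1245 and 1420.5 bp in that remainder, wider in replicate 2 and narrower in the others. Between the windows, the share of peaks at the floor was lower at 154 to 155 Mb in replicates 1 and 3 and higher in replicate 2. It rests on few peaks, 1, 5 and 1 there and 4, 3 and 3 at 156 to 157 Mb. It was 11.1%, 29.4% and 10% at 154 to 155 Mb and 36.4%, 25% and 37.5% at 156 to 157 Mb, against 41.6%, 42.7% and 34.6% in the remainder. The second window was thus above the remainder in replicate 3, and none of these differences was tested.

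Peaks of the duplicated bands 1q21.1 and 1q21.2 were shallow, and many of those in 1q21.2 were wide. Together the bands held 13, 22 and 17 peaks, of which 8, 9 and 6 were at least 10 kb wide (61.5%, 40.9% and 35.3%). Over all peaks of replicates 1, 2 and 3 that share was 11.2%, 8.12% and 9.05%. The median pileup was 5 fragments in each list and the highest 9, 9 and 12, and 76.9%, 63.6% and 70.6% of the peaks were at the floor. Among all peaks outside the arm the median pileup was 6 fragments in each list, and 51.1%, 42.6% and 40.3% were at the floor. Peaks of these bands covered 515.2, 641.3 and 930.3 kb of the 984.9, 1075.3 and 1319.3 kb covered on the whole arm. Most of the covered length of the arm in replicates 1, 2 and 3 therefore lay in 2 bands, and none of its deepest summits did. Whether reads matching several copies shaped these peaks was not tested.

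The bands differed in width. In 1q21.1 the median width was 787, 855 and 825 bp and 0 of 1, 1 of 9 and 2 of 7 peaks reached 10 kb, while in 1q21.2 it was 17202, 14047 and 6260 bp and 8 of 12, 8 of 13 and 4 of 10 did. In 1q21.1, 1 region was in all 3 lists, chr1:144163741-144164601, with folds of 4.22, 5.00 and 4.37 and pileups of 5, 6 and 5. Its summits lay within 25 bp of each other and all were at the floor. The widest peak of the arm was also in 1q21.1, chr1:142691530-143147241, 455712 bp long with a pileup of 7 and a fold of 5.82, and it was in replicate 3 alone. Another, chr1:143916210-144014080, had nearly the same extent in replicates 2 and 3 (97846 and 97565 bp), a pileup of 9 in both and folds of 6.32 and 6.62, and was not called in replicate 1. No list had a summit between 145439275 and 146757083, the stretch known to hold the RBM8A gene itself. A missing peak says only that no enrichment was called there.

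Band 1q21.2 held 12, 13 and 10 peaks and 4 regions in every list. The widest arm peaks of replicates 1 and 2 were here and overlapped. They were chr1:148606428-148737125, 130698 bp with 4 fragments at 3.52-fold in replicate 1, and chr1:148582417-148739100, 156684 bp with 8 fragments at 6.43-fold in replicate 2, and replicate 3 had no peak there. The longest recurrent region, chr1:149400383-149731710, joined 10 peaks over 331328 bp, and its best peaks had folds of 4.92, 4.29 and 5.82 with pileups of 6, 5 and 7. Replicates 1 and 2 started their first peak there at 149400411 and 149400383 and ended it at 149450386 and 149450412, while replicate 3 drew 1 peak of 279311 bp from 149400724 to 149680034. The regions chr1:149788730-149804091 and chr1:149832869-149852067 followed, in the stretch known for the HIST2 cluster of histone genes, some of which are near-identical copies. The former had folds of 5.63, 6.43 and 4.37 with pileups of 7, 8 and 5, and the latter 7.03, 4.29 and 4.82 with pileups of 9, 5 and 7. Histone genes of this kind have no introns, and reads that match several copies were not resolved here, so which copy gave the signal is uncertain. The region at MRPS21, a mitochondrial ribosome protein gene, closed the band at chr1:150267057-150280506 with folds of 4.22, 3.64 and 3.64 and pileups of 5, 9 and 4.

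**Figure D2:**
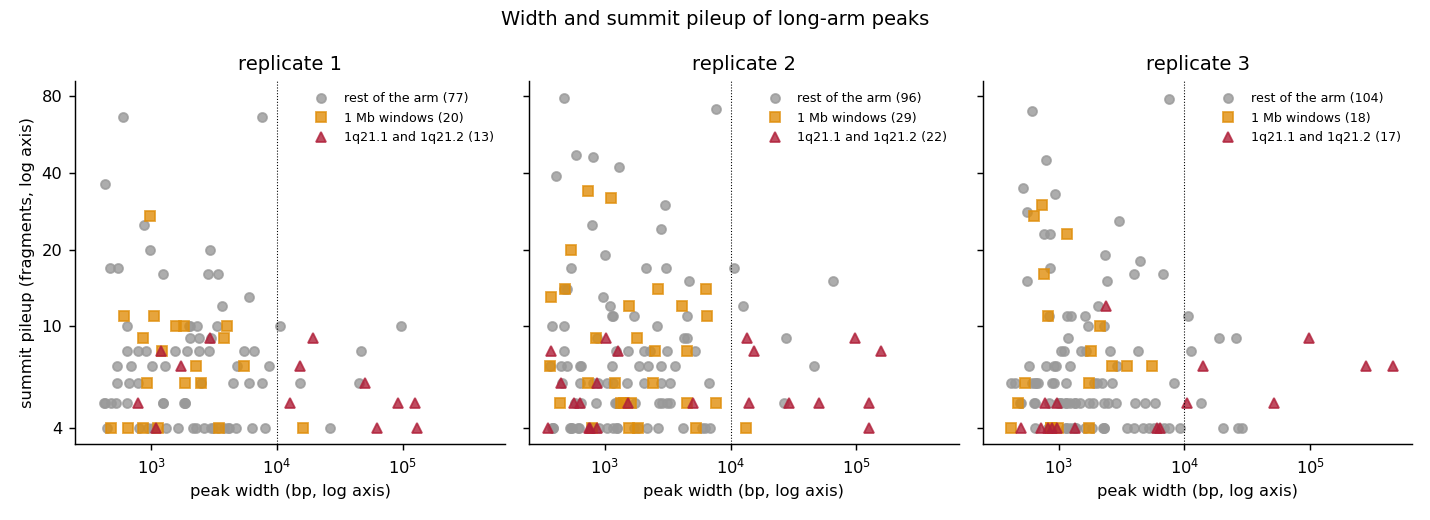
Summit pileup (vertical axis, fragments, log scale) against peak width (horizontal axis, bp, log scale) of each long-arm peak, in one panel per replicate, coloured by location, with the number of peaks in brackets and a dotted line at 10000 bp. Peaks of 1q21.1 and 1q21.2 lie low, with at most 9, 9 and 12 fragments, and 8, 9 and 6 of them lie right of the line, and at most 1 window peak per list lies right of the line.

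The ends of wide peaks matched between lists in a smaller share, on the arm and elsewhere, a difference that was not tested. The arm had 45 peaks of at least 10 kb, 23 in the duplicated bands, and 30 of the 45 were at the floor. Among arm peaks of every width 42.7%, 42.9% and 37.4% were at the floor in replicates 1, 2 and 3. Another list overlapped 34 of the 45, and in 9 of these (26.5%) both ends lay within 200 bp of a peak of another list. Among narrower peaks 186 were overlapped, and in 92 (49.5%) both ends matched that closely. Among all other peaks of replicates 1, 2 and 3 these shares were 32%, 31.9% and 23.7% for wide peaks. For narrower ones they were 44.7%, 38.9% and 41.8%. The limit of 200 bp was the same at every width, so relative to length it is stricter for wide peaks. Outside the duplicated bands a steady wide peak was the second region at ENAH, chr1:225707428-225718098, with 10483, 10658 and 10645 bp in replicates 1, 2 and 3. ENAH encodes a regulator of actin assembly, and the 3 peaks had folds of 4.74, 2.88 and 3.94 with 10, 17 and 11 fragments.

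Across the whole arm the union of the lists held 255 regions, of which 32 (12.5%) were in all 3 lists, 47 (18.4%) in 2 and 176 (69%) in 1. Elsewhere in the genome 401 of 3329 regions (12%) were in all 3. Regions in 1 list had a median pileup of 5 fragments and those in 2 lists 7. For the 32 the mean pileup over the lists ran from 4.33 to 71.7 with a median of 9.98. Recurrence rose with depth within each list, on the arm as over all other peaks. On the arm 16.2% ± 6.95 of arm peaks with 4 or 5 fragments, 26.9% ± 4.27 of those with 6 to 9 and 51.3% ± 6.48 of those with 10 or more were overlapped in both other lists (SD, n = 3), and elsewhere the mean shares were 10.5%, 23% and 60.1%.

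The deepest recurrent regions were at S100A10 and RPS27 in 1q21.3. S100A10 encodes the light chain of the annexin A2 complex, and its region chr1:151955956-151956568 had 66, 47 and 70 fragments in replicates 1, 2 and 3 with summits within 6 bp. The second region at the gene, chr1:151958675-151966267, had 66, 71 and 78 fragments with summits within 10 bp. Folds were low at both, 2.13, 1.84 and 2.84 at the first and 2.22, 2.89 and 1.66 at the second, at expected levels between 23.9 and 46.5 fragments. RPS27, a ribosomal protein gene, had 36, 46 and 45 fragments and folds of 1.93, 3.14 and 2.44 at chr1:153963256-153964057. The deepest arm peak of any list was at S100A6, chr1:153507282-153507751, with 79 fragments, and replicate 2 alone called it. All 4 regions with a mean fold under 3 (both at S100A10, RPS27 and TPM3) were among the 7 with a mean pileup of at least 20 fragments. At low fold a peak passes the caller's threshold only with many fragments, so this count is set by the calling.

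At the other end, CAPN2, which encodes the catalytic subunit of the protease m-calpain, ranked first and second by fold. The ranking used the mean percentile of the best peak within its own list. Its first region, chr1:223900741-223932903, had folds of 5.62, 6.32 and 7.28 (6.41 ± 0.831, SD, n = 3) with 7, 9 and 9 fragments, but the peaks were 1012, 27386 and 25935 bp wide and shared no base common to all. The second, chr1:223934801-223936807, was compact, with folds of 5.96, 4.37 and 6.19 (5.50 ± 0.991) and 10, 11 and 10 fragments. Another, chr1:223939711-223945191, had folds of 3.88, 9.42 and 3.02 with 16, 15 and 19 fragments, so the pileup was steady and the fold was not. The expected level there was 3.38, 0.699 and 5.62, lowest in the replicate with the high fold.

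The same pattern of 1 outlying fold recurred at the pair of genes YY1AP1 and DAP3 in 1q22. The best peaks at chr1:155630159-155695217 had folds of 3.53, 11.4 and 4.95 (6.63 ± 4.21) with pileups of 7, 15 and 9, and widths of 8574, 65059 and 18754 bp. The replicate 2 value was the highest fold on the arm in any list, and its peak was the widest of the 3. A gene of the mitochondrial ribosome, DAP3, and a transcription-related gene, YY1AP1, lie side by side here, and the peak could not be assigned to either.

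Ranks 3, 5, 7 and 10 by fold were regions of the duplicated bands 1q21.1 and 1q21.2, described above, with pileups of 5 to 9 fragments. PRRC2C, CENPF and TPR supplied 4 more of the 15 highest ranks. PRRC2C, which encodes an RNA-binding protein, had 2 regions: chr1:171482357-171483589 with folds of 3.46, 5.06 and 5.30, and chr1:171492641-171497165 with folds of 4.88, 4.60 and 6.24 and pileups of 8, 17 and 18. CENPF, a kinetochore protein gene, had folds of 5.20, 7.14 and 3.95 and pileups of 13, 9 and 9 at chr1:214830673-214836826. TPR, a nuclear pore protein gene, had steadier folds of 4.33, 4.77 and 4.17 at chr1:186296956-186300568, with 7, 7 and 5 fragments. At this CENPF region the best peaks of replicates 2 and 3 shared no base, and the best summits spanned 5930 bp, so its values come from different positions. At both PRRC2C regions and at TPR the 95% counting intervals of the 3 pileups overlapped.

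ADIPOR1, an adiponectin receptor gene, and ZC3H11A, a zinc finger gene of the messenger RNA export machinery, were also among the 15. ADIPOR1 had folds of 6.83, 4.00 and 3.94 with 9, 10 and 15 fragments at chr1:202917516-202920088, highest in the replicate with the fewest fragments. ZC3H11A had folds of 6.74, 2.43 and 4.72 with 20, 17 and 23 fragments at chr1:203816582-203817553. Similar pileups again went with unlike folds, and the expected levels were 2.11, 6.41 and 4.09. HNRNPU, which encodes an abundant nuclear RNA-binding protein, was deeper at 25, 42 and 33 fragments, with folds of 3.76, 2.33 and 5.57 at chr1:245025993-245027286. NUCKS1, a nuclear protein gene, had 20, 30 and 26 fragments and folds of 3.72, 3.29 and 2.94 at chr1:205689889-205692901. H3-3A, which encodes the replication-independent histone H3.3 and unlike the clustered histone genes has introns, had folds of 3.88, 3.37 and 4.48 with 16, 24 and 11 fragments at chr1:226250464-226253264. The shallowest recurrent region was at DCAF6, chr1:168012479-168013733, with 5, 4 and 4 fragments and folds of 4.22, 3.57 and 3.64. Depth among the recurrent regions thus spanned from the caller's lower end at DCAF6 to the S100A10 summits.

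**Figure D3:**
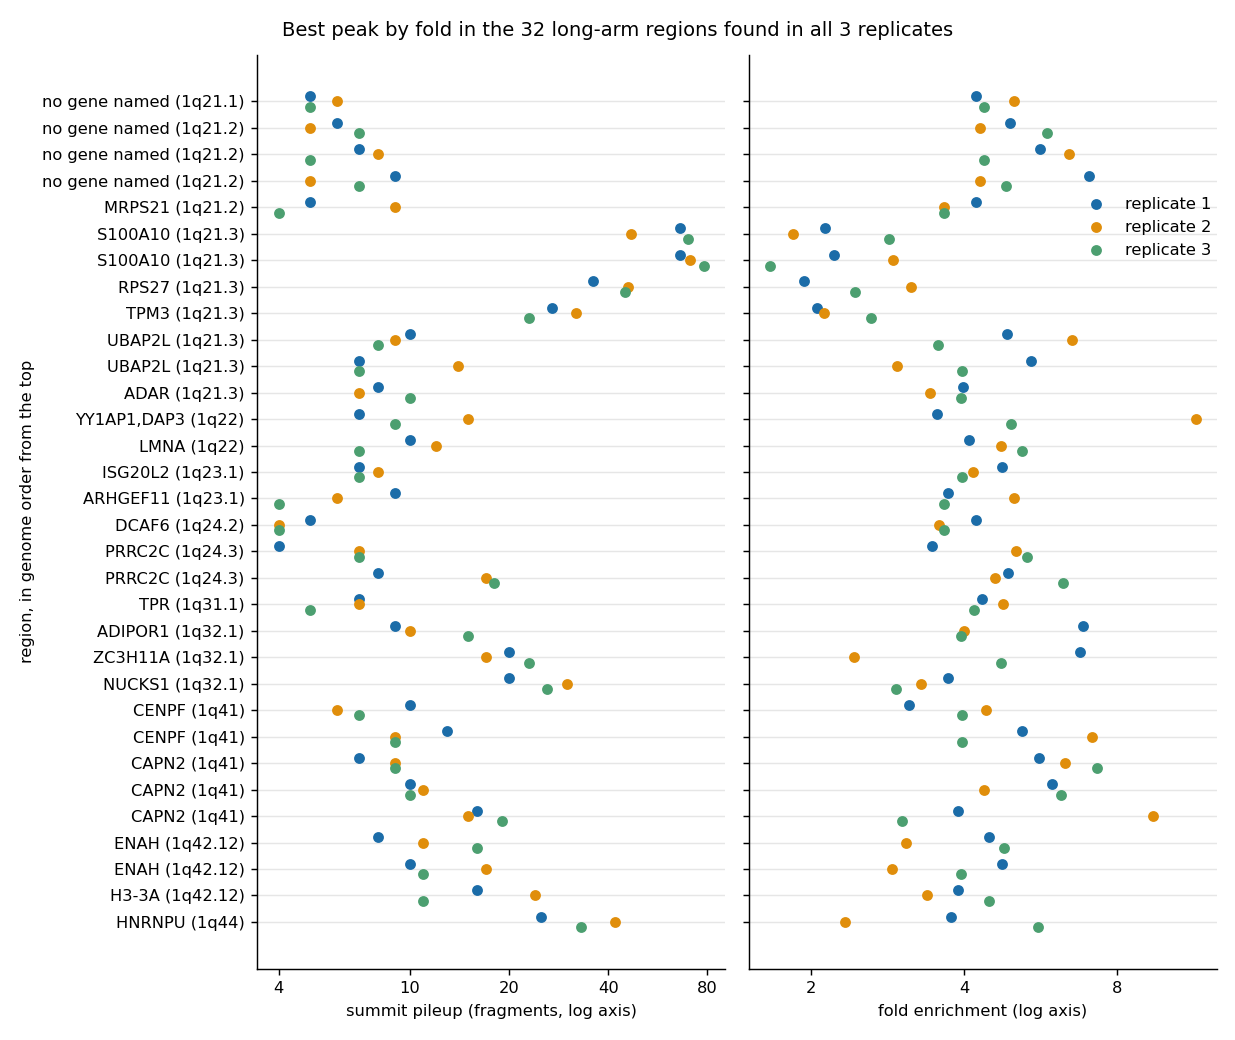
Summit pileup (left, fragments, log scale) and fold enrichment (right, log scale) of the best peak by fold in each of the 32 long-arm regions found in all 3 replicates, in genome order, with one point per replicate and the gene known at the position. Pileups at S100A10 reach 47 to 78 with folds under 3, and the point farthest right in fold is replicate 2 at YY1AP1 and DAP3 (11.4).

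The 32 regions were selected by overlap, and their best peaks could still lie apart. In 28 of them the best peaks of all 3 lists shared at least 1 base, in 6 the best summits lay within 100 bp, and in 0 did all 3 reach a −log10 q-value of 5. On the arm 13, 23 and 14 peaks reached that level, or 11.8%, 15.6% and 10.1%. Over all peaks of replicates 1, 2 and 3 the share was 13.4%, 15.6% and 16.9%.

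Peaks often lay near each other. With summits under 20 kb apart joined into runs, a distance chosen after the data were seen, the 396 peaks made 144 runs, and 20 runs of at least 6 peaks held 167 peaks (42.2%). Over all 5041 other peaks the share in such runs was 35.1%. Runs pool the 3 lists, so 1 region found by each list adds at least 3 peaks. The largest, chr1:154180323-154241034 at UBAP2L and its neighbour LTAP1 (also C1orf43), had 3, 6 and 5 peaks. TPR had a run of 2, 4 and 6 peaks over chr1:186294980-186331440, ENAH one of 5, 2 and 4 over chr1:225688743-225723300, and CAPN2 one of 3, 4 and 3 over chr1:223905518-223949325. Some long runs missed 1 list: LAMC1, a laminin chain gene, had 0, 3 and 4 peaks, CGN, the gene of the tight junction protein cingulin, 0, 4 and 2, and a second PRRC2C run 2, 0 and 5.

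**Figure D4:**
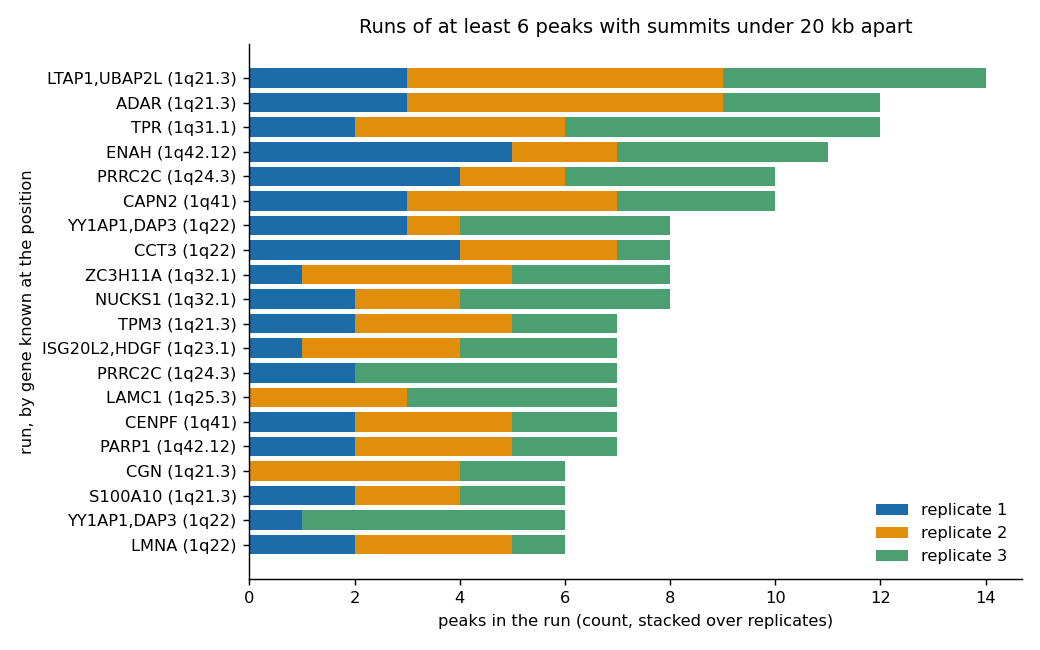
Number of peaks (horizontal axis, count, stacked over the 3 replicates) in each of the 20 runs of at least 6 peaks whose summits lie under 20 kb apart, by the gene known at the position (vertical axis). UBAP2L with LTAP1 is longest at 14 peaks, and LAMC1 and CGN lack replicate 1.

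Set against all other peaks of the same list, the arm held more peaks per length. It held 1.06 ± 0.157 peaks per Mb against 0.56 ± 0.106 elsewhere, higher in 3 of 3 replicates. The short arm of the chromosome, part of the latter, held 0.851 ± 0.216 per Mb, so a raised density was not particular to the long arm. The share of peaks overlapped in both other lists was 33.6%, 23.1% and 27.3% on the arm (28% ± 5.29) and 32.3%, 22.1% and 26.4% elsewhere. Over all peaks of replicates 1, 2 and 3 it was 32.4%, 22.2% and 26.5%. The paired difference was 1.11 ± 0.231 percentage points, with the same sign in 3 of 3 replicates. Its direction was not stable: it was -18.7 points among peaks with a −log10 q-value of at least 5 and -9.78 at a fold of at least 5, each with the same sign in 3 of 3 replicates (exact sign-flip permutation p = 0.25). It was also negative without 1q21.1 and 1q21.2 (-1.56). Without replicate 2 it was -1.44, but sharing was then counted in the remaining other list only. By the main measure the differences of replicates 1 and 3 were 1.37 and 0.94. Overlap is mutual, so the 3 lists counted largely the same shared regions (37, 34 and 38 arm peaks). The 3 differences in recurrence were therefore not independent, and their SD, common sign and p do not measure replication. Peaks of at least 10 kb made up 13.6%, 10.9% and 10.1% of the arm (11.5% ± 1.87) against 11%, 7.92% and 8.96% elsewhere. Without the duplicated bands the difference of 2.23 points became -2.84. For this share and for recurrence the bands were left out of the arm only. The other peaks were unchanged and kept any duplicated loci of their own.

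Other properties lay close to those of the remaining peaks. The median fold was 3.94, 4.00 and 3.64 on the arm and 4.20, 4.16 and 3.97 elsewhere, lower on the arm in 3 of 3 replicates, with a mean difference of -0.248 ± 0.0901 (SD, n = 3). Median widths were 2023, 1282 and 1352 bp against 1859.5, 1568 and 1852 bp, wider on the arm in replicate 1 and narrower in the others. Median pileups were 6.5, 6 and 6 fragments against 6, 6 and 6. With 3 replicates the exact two-sided sign-flip permutation test cannot give a p below 0.25. That value was reached for peaks per Mb, recurrence, the share of wide peaks and the fold, and adjusted over the 7 values compared (Benjamini-Hochberg) it was 0.4375. For the width and for the share at a −log10 q-value of 5 the permutation p was 0.5, and for the pileup it was 1. None of the 7 could therefore pass a threshold of 0.05 in this design.

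**Figure D5:**
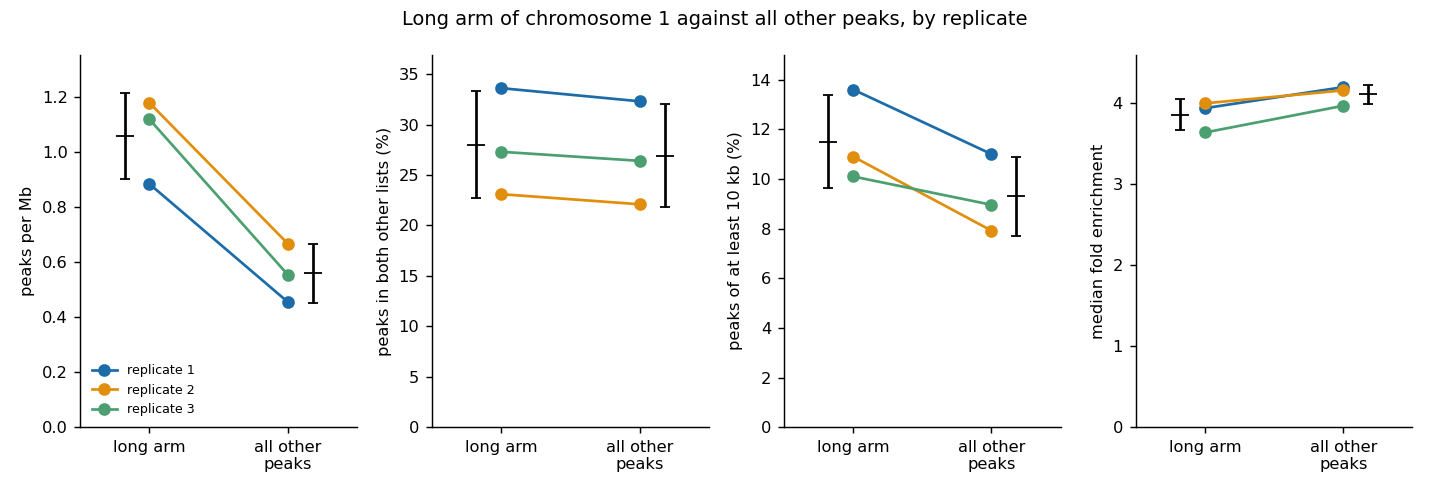
Peaks per Mb, share of peaks found in both other lists (%), share of peaks of at least 10 kb (%) and median fold enrichment on the long arm of chromosome 1 and over all other peaks, with one line per replicate and the mean ± SD (n = 3) in black beside the points. All 3 lines fall from the arm to the other peaks in peaks per Mb, recurrence and wide peaks, and rise in median fold.

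The short arm of the same chromosome was a closer comparison, added after the data were seen. It held 319 peaks, 83, 136 and 100 in replicates 1, 2 and 3, and 31 of its 194 regions (16%) were in all 3 lists. The long arm exceeded it by 0.212 peaks per Mb, but the difference in recurrence was -5.02 percentage points, so the direction for recurrence depended on what the arm was set against. The long arm minus the short arm came to -0.833 fragments in median pileup, -0.256 in median fold, -427.8 bp in median width and -5.95 percentage points in the share at a −log10 q-value of 5. These 6 short-arm differences had the same sign in 3 of 3 replicates (exact sign-flip permutation p = 0.25, adjusted p = 0.2917). For recurrence the 3 differences were again not independent.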

How the data were processed

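Narrow peak lists of 3 RBM8A immunoprecipitates from AGS cells were analysed, each called on 1 replicate. The submitters' processing notes name MACS2, HISAT2, GATK, SAMtools and FastQC, with no version or setting. The background sample of the peak calls is also not given in the sources used here. The deposited fold enrichment is a ratio of pileup to expected level by the authors, each after adding 1. The authors also deposited a −log10 p-value, a −log10 q-value and a score made from the latter, which was not used. The notes name hg38, but 2 arm peaks end beyond position 248956422, the length of chromosome 1 in hg38, and 0 end beyond its hg19 length of 249250621, so the coordinates were taken as hg19. These peaks are chr1:249150069-249150726 in replicates 2 and 3.

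The pileup of a summit was taken as the whole number, at most 400, that yielded its deposited fold and −log10 p-value to within 0.0005. Summits within 0.5% of a list's lowest expected level were called at the floor. Peaks counted as shared at an overlap of at least 1 bp. Arm and other peaks were compared within each list, with an exact two-sided sign-flip permutation test over 3 replicates and Benjamini-Hochberg adjustment over 7 values. Lengths for peaks per Mb were 124.3 Mb for the arm and 2971.4 Mb for the rest of chromosomes 1 to 22, X and Y. Bands were those of hg19.

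The members, windows and lists were chosen with earlier results of these data known. Positions described in full were the 15 arm regions in all 3 lists with the highest mean percentile of fold, all such regions in the windows and in 1q21.1 or 1q21.2, and the widest and deepest peak of each list; others were picked after their values were seen. Gene names are general knowledge of the hg19 map. All 55 were found on chromosome 1 of the RefSeq gene table of GRCh38.p14, in the same order for 55 of 55 neighbouring pairs of positions and with spacing that fits both positions inside their genes for 52. Its coordinates were not used otherwise. Alternatives were stricter q and fold, larger overlaps, peaks under 10 kb, leaving out bands, windows or a replicate, and the short arm. The steps were tested on simulated data. Computing used scipy 1.17.1, numpy 2.4.6, pandas 2.3.3 and matplotlib 3.10.9 in Python 3.11.15.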

Additional observations from a re-analysis of the deposited data

How the results depend on the processing

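All values are differences of the arm minus all other peaks unless said. Where a replicate was left out, recurrence meant overlap in the remaining other list only, a looser measure than overlap in both other lists. Peaks per Mb (10 alternatives), median fold (9) and the share at a −log10 q-value of 5 (8) kept their direction under every alternative run. Recurrence, 1.11 percentage points, reversed at −log10 q of at least 5 (-18.7), fold of at least 5 (-9.78), peaks under 10 kb (-0.541), without 1q21.1 and 1q21.2 (-1.56) and against the short arm (-5.02), and ran from -1.44 to 4.4 when each replicate was left out, the lowest without replicate 2. The share of peaks of at least 10 kb, 2.23 points, reversed without 1q21.1 and 1q21.2 (-2.84), bands that hold 23 of the 45 wide peaks. The bands were left out of the arm only, and the other peaks were unchanged. Median width, -207.5 bp, became 484.7 at −log10 q of at least 5 and -85 without the windows, and ran from -393 without replicate 1 to -61.2 without replicate 3. Median pileup, 0.167 fragments, became -0.333 at that q, -0.333 without the windows and -0.833 against the short arm, and ran from 0 to 0.25 without 1 replicate. The windows minus the rest of the arm, 1.93 points in recurrence, became 12.2 with at least 50% of both peaks overlapping, 9.8 among peaks under 10 kb, -1.04 at a fold of at least 5 and 0 at −log10 q of at least 5 (2 replicates with window peaks), and ran from 3.88 to 17.5 without 1 replicate, the highest without replicate 1. Arm regions in all lists numbered 32, but 6 with summits within 100 bp, 0 at −log10 q of at least 5, 1 at a fold of at least 5, and 43 to 52 when only the remaining lists had to agree. The cause was not tested. The share at −log10 q of at least 5 among peaks past that value, and the share of wide peaks among peaks under 10 kb, are fixed by construction and were not run. The short-arm comparison was added after the data were seen. No paired analysis was possible because no input sample had a peak list to analyse here; the arm and other peaks were paired within each list. Depth limits the arm most at its peaks of 4 or 5 fragments: 42, 59 and 68 of them in replicates 1, 2 and 3 (38.2%, 40.1% and 48.9%). Among all other peaks that share was 42.6%, 39.1% and 42.3%, so such peaks were not particular to the arm.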

Other observations

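Outside the windows, 36 arm regions were in 2 of the 3 lists, and 33 of these lay at 28 named genes, chosen after their positions were seen. Of the 33, 8 were at a gene that also had a region in all 3 lists. The others included regions at LAD1, CGN and HRNR. LAD1, which encodes the basement membrane protein ladinin, had 2 regions: chr1:201352461-201353970 with folds of 4.84 in replicate 1 and 5.01 in replicate 3, and chr1:201355982-201368390 with 5.42 in replicate 1 and 6 in replicate 2. CGN, the cingulin gene, also had 2, both in replicates 2 and 3 and not in replicate 1, with folds of 4.16 and 3.46 at chr1:151502551-151503182 and of 6.43 and 3.97 at chr1:151504991-151506505. HRNR, the gene of the skin protein hornerin, had the highest fold of replicate 1 on the arm, 7.74 with 10 fragments, at chr1:152186914-152189849, and 6.43 with 8 fragments in replicate 2.

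DHX9, CLK2 and BTG2 were also found in 2 lists. DHX9, an RNA helicase gene, had folds of 3.52 and 4.63 with 4 and 6 fragments in replicates 1 and 3 at chr1:182847367-182848271. CLK2, a kinase of splicing factors, had folds of 4.29 and 3.64 with 5 and 4 fragments in replicates 2 and 3 at chr1:155240708-155243035. BTG2, an antiproliferative gene that promotes messenger RNA decay, had folds of 4.68 and 3.31 with 11 and 8 fragments in the same replicates at chr1:203274982-203276121. The pileups at DHX9 and CLK2 were among the lowest that were called.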
